A study of Homo sapiens with 8 samples.

Results

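The genes described here encode enzymes that place or remove histone acetylation, the modification that was itself profiled. They are the acetyltransferase genes EP300, CREBBP, KAT2A, KAT2B, KAT6B and KAT8 and the deacetylase genes HDAC1, HDAC2, HDAC3 and HDAC9. A peak belonged to a gene when the annotated H3K9ac lists named that gene for it. An H3K27ac peak belonged to a gene when its centre lay within 2 kb of the centre of one of those H3K9ac peaks. These 10 genes were among 10770 protein-coding genes named in the H3K9ac lists. They held 8 of 7141 astromal and 20 of 20326 stromal H3K9ac peaks, and 14 of 14489 astromal and 13 of 15093 stromal H3K27ac peaks.

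Acetyltransferases move the acetyl group of acetyl-CoA onto lysines of histone tails, and deacetylases take it off, so the marks at a promoter reflect the activity of both. EP300 and CREBBP encode the paired coactivators p300 and CBP, which are known for acetylating H3K27. KAT2A and KAT2B encode the GNAT-family enzymes GCN5 and PCAF, known for H3K9ac. KAT6B and KAT8 are MYST-family enzymes, the latter acetylating histone H4. HDAC1, HDAC2 and HDAC3 are class I deacetylases that work in nuclear corepressor complexes, and HDAC9 is a class IIa deacetylase. Class I deacetylases are targets of inhibitors studied in pancreatic cancer.

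Chromatin came from MIA PaCa-2, an established human pancreatic cancer cell line, grown as spheroids in a hydrogel of thiol-modified hyaluronan (Glycosil) with a polyethylene glycol diacrylate crosslinker (Extralink). The astromal gel had water in place of Gelin-S and was fed DMEM with 2% FBS. The stromal gel held Gelin-S, given in the labels as collagens, and was fed conditioned medium with 2% FBS from immortalized myofibroblasts of resected human pancreatic tumours. Gel component and medium changed together, so their parts cannot be told apart, and the study rests on 1 cell line with 1 library per mark and condition. No difference between conditions therefore has a replicate check, and none is given a p-value.

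The H3K9ac libraries held about 3925277 (astromal) and 7569604 (stromal) tags, as recovered from the values. The H3K27ac libraries held 13453902 and 17190695 tags by their headers. Levels are tags per peak scaled by the authors to 10000000 tags of the library, called normalised tags below, with the tags themselves in brackets. The weakest peak of the astromal H3K9ac list held 5 tags and the median peak 9, against 8 and 20 in the stromal list, so a site missing from the astromal list is not a measured absence. At overlapping peaks the stromal H3K9ac level was 1.55 times the astromal one at the median, and the H3K27ac level 0.882 times. H3K27ac peaks were 197 bp wide in the astromal list and 175 bp in the stromal one. The part of this width difference in the H3K27ac shift was not tested. Of 8 ductal epithelial marker genes, 3 had astromal and 4 stromal H3K9ac peaks, and KRT7, EPCAM and CDH1 had none. Of 10 fibroblast marker genes, none had an astromal and 4 a stromal H3K9ac peak (summed level 181 normalised tags), and of 4 leukocyte marker genes none had a peak. The part of the fibroblast marker difference in the results below was not tested.

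The DNA just upstream of the start sites is shown first for 5 windows, because most peaks of these genes lay near such starts. Each run is the 250 bases before a RefSeq start, 5′ to 3′ on the gene's strand, from the RefSeq promoter table in build GRCh38.p14. Peak positions are in hg19, and the builds were not mapped onto each other. Of the 10 genes 9 matched the table, and 6 had a single start there. Capitals mark matches on either strand to any of 8 motifs: GGGCGG (GC box), CCAAT, TGACGTCA (cyclic AMP response element), CACGTG (E-box), the NRF1 motif, CCGGAAG (ETS), AAGATGGC (YY1) and TATAAA. Overlapping matches run together. HDAC1 is shown because peaks of both marks lay on both sides of its start in both conditions, EP300 and KAT2A because their H3K27ac was lower in or missing from the stromal list, HDAC3 because its H3K9ac was in 1 list and its H3K27ac in both, and a downstream start of HDAC9 because H3K9ac of both conditions lay just past it, if the starts of both builds match.
HDAC1 (chr1:32291833-32292082, plus strand): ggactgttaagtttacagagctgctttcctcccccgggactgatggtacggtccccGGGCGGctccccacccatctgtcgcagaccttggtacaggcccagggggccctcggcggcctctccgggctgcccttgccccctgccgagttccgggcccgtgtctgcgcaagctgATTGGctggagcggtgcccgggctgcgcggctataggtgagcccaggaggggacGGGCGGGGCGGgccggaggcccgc
EP300 (chr22:41092342-41092591, plus strand): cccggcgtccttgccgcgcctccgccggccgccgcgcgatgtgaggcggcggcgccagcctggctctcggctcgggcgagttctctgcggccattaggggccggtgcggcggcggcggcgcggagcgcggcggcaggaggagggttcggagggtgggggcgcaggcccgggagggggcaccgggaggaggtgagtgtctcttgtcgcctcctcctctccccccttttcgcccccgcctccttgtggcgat
KAT2A (chr17:42121368-42121617, minus strand): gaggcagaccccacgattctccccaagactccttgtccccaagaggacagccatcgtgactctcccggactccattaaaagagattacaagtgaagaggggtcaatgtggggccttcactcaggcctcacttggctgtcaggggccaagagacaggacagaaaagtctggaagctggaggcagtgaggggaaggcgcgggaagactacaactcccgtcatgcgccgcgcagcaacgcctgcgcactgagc
HDAC3 (chr5:141636850-141637099, minus strand): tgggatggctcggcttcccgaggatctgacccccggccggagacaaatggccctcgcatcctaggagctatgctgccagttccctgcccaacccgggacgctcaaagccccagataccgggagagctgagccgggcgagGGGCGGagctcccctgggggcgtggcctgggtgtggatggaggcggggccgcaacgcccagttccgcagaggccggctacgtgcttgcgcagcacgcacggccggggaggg
HDAC9 (chr7:18509020-18509269, plus strand): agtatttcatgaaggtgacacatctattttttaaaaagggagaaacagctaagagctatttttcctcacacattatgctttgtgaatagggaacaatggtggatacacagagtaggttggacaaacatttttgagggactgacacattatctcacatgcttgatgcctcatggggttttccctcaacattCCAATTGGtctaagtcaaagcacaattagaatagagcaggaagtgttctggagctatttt

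The windows differed widely in base composition. EP300 had 35 CpG dinucleotides and 76.8% G and C, which put its CpG count at the 95.1 percentile of 35116 windows. HDAC3 had 22 CpG, HDAC1 21 and KAT2A 11, the last equal to the median of all windows. The HDAC9 window had 0 CpG and 38.4% G and C. GC boxes, which 42.6% of all windows hold, were present in 3 of the 6 single-start windows, those of HDAC1, HDAC3 and KAT2B. A CCAAT box, held by 32% of all windows, was present in 1 of the 6, that of HDAC1. None of the other motifs was found in the 6 windows. The HDAC9 window, from a gene with 5 starts in the table, held CCAAT on both strands. They are held by 1.65% (cyclic AMP response element), 6.34% (E-box), 1.03% (NRF1), 8.52% (ETS), 1.36% (YY1) and 10.7% (TATAAA) of all windows. A match is a run of letters, not a measured site of binding.

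Every one of the 10 genes had H3K9ac in the stromal list, and EP300, KAT2A, KAT6B, HDAC1, HDAC2 and HDAC9 also had it in the astromal list. Those 6 of 10 with the mark in both compare with 48.1% of the 10770 genes. CREBBP, KAT2B, KAT8 and HDAC3 had H3K9ac in the stromal list only, 4 of 10, where 51.2% of all genes did. No member had it in the astromal list only (0.706% of all genes). H3K27ac lay within 2 kb in at least 1 condition at all 10 genes, and at 78.5% of the 10770. In the stromal list it did so at 8 members and at 71% of all genes. It was in both lists at 7 members, against 83.9% of all genes with the mark. KAT2A and CREBBP had it in the astromal list only (9.47% of all genes with the mark) and KAT8 in the stromal list only (6.63%). The H3K9ac shares lie near these backgrounds, and each H3K27ac share in 1 list rests on 1 or 2 genes.

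**Figure D1:**
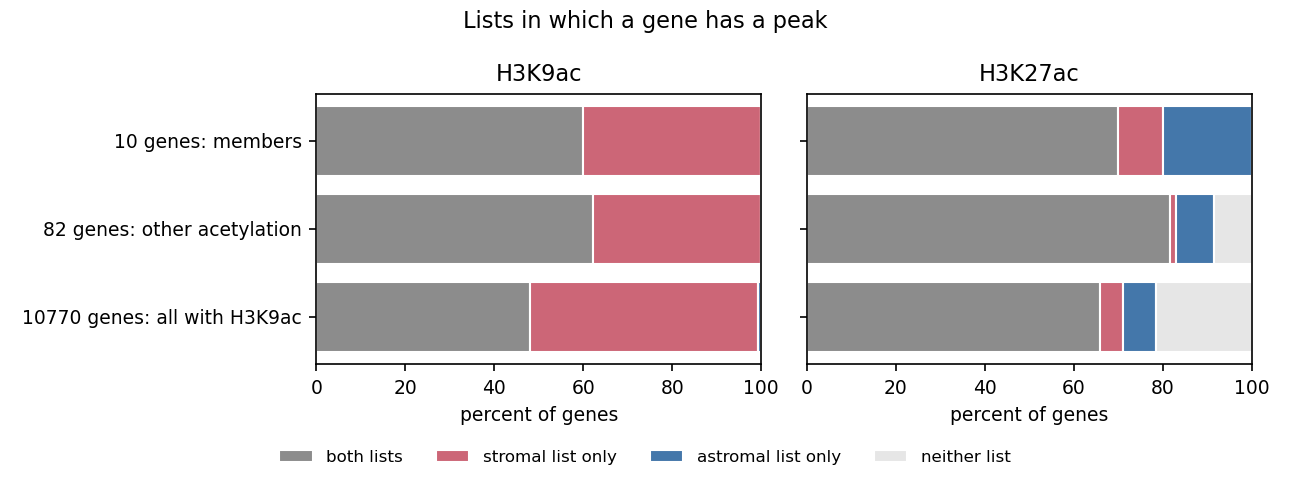
Percent of genes (horizontal axis) with a peak in both lists, 1 list or neither, for H3K9ac (left) and H3K27ac (right). The rows are the 10 members, 82 other genes of acetylation enzymes and their complexes, and all 10770 genes with an H3K9ac row. Shares are of all genes in a row, also for H3K27ac. Stromal-only H3K9ac took 4 of 10 members and 51.2% of all genes.

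Where both conditions had a level, changes were read against the median of all genes in the same position, 1.00 on the log2 scale for H3K9ac (5179 genes) and −0.17 for H3K27ac (7091 genes). A call needed a centred ratio, stromal over astromal, of 2-fold or more with a 95% interval that did not include 0. This interval is an exact binomial one for counting error only. None of the 6 members with H3K9ac in both lists was called, where 5.85% of all genes were called higher and 3.61% lower. In H3K27ac the sums of 2 of 7 were called lower, EP300 and KAT6B (6.22% of all genes), and 1 of 7 higher, HDAC9 (5.47%). These are sums over peaks listed separately in each condition, where an unlisted site adds 0, so they move with the number of listed peaks. EP300 had 3 astromal peaks and 1 stromal peak, KAT6B 2 and 1, and HDAC9 1 and 4. None of the 3 was called by the highest peak. Over all genes, 376 of the 388 H3K27ac sums called higher had more stromal peaks and 412 of the 441 called lower had fewer. Only 35 genes were called higher and 62 lower by the highest peak. A call below is therefore a difference in the listed sum, not a measured 2-fold change at a site. The member medians were −0.08 for H3K9ac and −0.19 for H3K27ac, with 0 for all genes by construction. When counts were simulated at genes listed in both conditions, the rule found 40% of the 2-fold rises in H3K9ac and in H3K27ac. It found 34% and 38% of the 2-fold falls, so a gene that was not called may still differ. With no change simulated, 2.43% of genes were called in H3K9ac and 1.28% in H3K27ac. Peaks entering or leaving a list were not simulated, so these rates do not cover calls that move with the number of peaks.

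**Figure D2:**
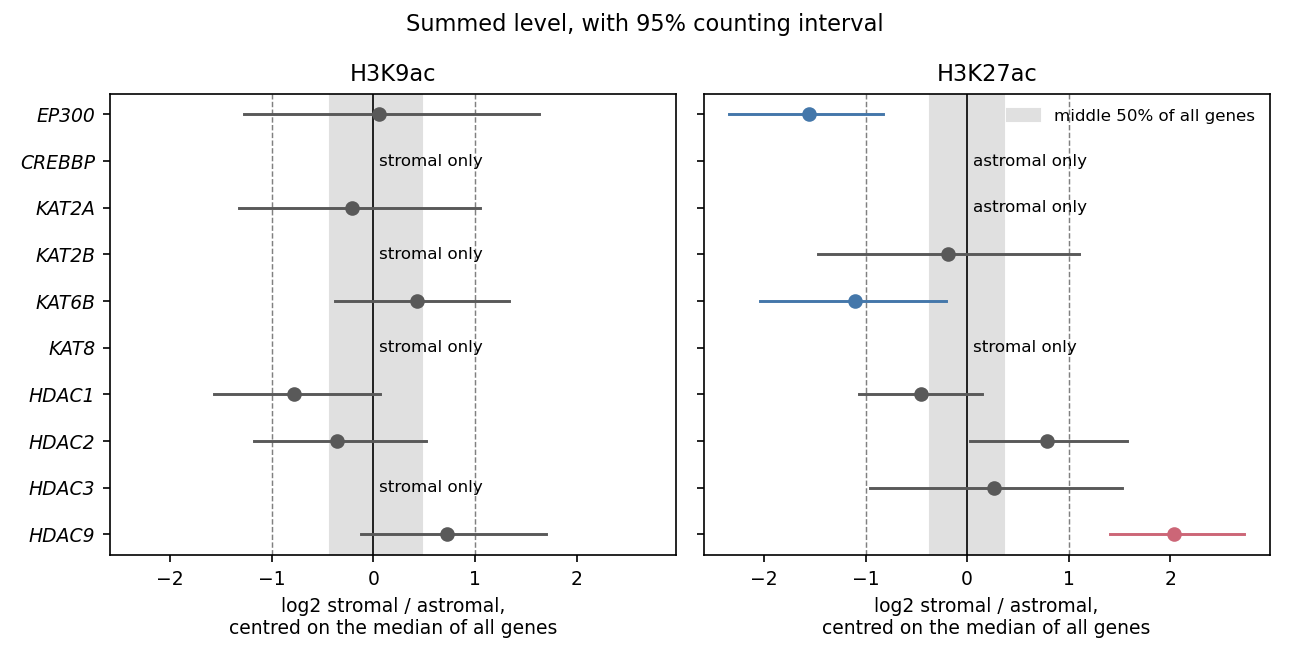
Centred log2 ratio of summed level, stromal over astromal (horizontal axis), for each member in H3K9ac (left) and H3K27ac (right). Points are single-library ratios, lines their 95% counting intervals, dashed lines 2-fold and the grey band the middle 50% of all genes. Words name the list where only 1 condition had a peak. EP300 and KAT6B (blue) were called lower and HDAC9 (red) higher, all in H3K27ac.

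EP300 had a smaller H3K27ac sum and fewer peaks in the stromal list, and its H3K9ac ratio was not called. Its H3K27ac level was 42.32 normalised tags (57 tags) in 3 astromal peaks and 12.8 (22 tags) in 1 stromal peak. The centred ratio was −1.56 (−2.34 to −0.83), called lower. The peaks covered 591 bp and 175 bp, with means of 14.1 and 12.8 per peak. The strongest astromal peak, on chromosome 22 from 41487117 to 41487313 (hg19), lay 1399 bp upstream of the EP300 start with 22.3 normalised tags, and it overlapped the single stromal peak of 12.8. That site alone differed by −0.80 on the uncentred log2 scale. The other astromal peaks, 807 bp upstream with 8.92 and 276 bp downstream with 11.1, had no stromal counterpart. At equal levels the deeper stromal library would have held 15.3 and 19.1 tags there, and 13.5 and 16.8 with the shift of overlapping peaks. Its header gives a tag threshold of 11. Their folds over the surrounding 10 kb, 4.12 and 5.26, were close to the 4 that the caller required, so neither missing stromal peak is a measured absence. By the highest peak alone EP300 was at −0.61 (−1.47 to 0.24) and was not called.

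EP300's H3K9ac peak lay just inside the gene in both lists, with 15.3 normalised tags (6 tags) astromal and 31.7 (24 tags) stromal. The stromal value is the higher one, by 1.05 on the log2 scale, and by 0.05 after centring (−1.28 to 1.63). By the highest peak the centred value was 0.38 (−0.95 to 1.96). The uncentred median of all overlapping H3K9ac peaks was 0.64. A second stromal H3K9ac peak of 27.7 (21 tags), on chromosome 22 from 41487166 to 41487376, is named for the microRNA gene MIR1281 in the list and so is not counted for EP300. It sits on the upstream H3K27ac site, where the astromal H3K9ac list has no overlapping peak. With it EP300 would have 59.4 normalised tags (45 tags) in the stromal list.

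CREBBP, the partner of EP300, showed 1 site and each mark in a different condition. The site lay 1136 bp upstream of the start used by the H3K9ac annotation, on chromosome 16 from 3931152 to 3931362. RefSeq holds 2 CREBBP starts in GRCh38, and the distance to the other was not taken. H3K9ac was found there in the stromal list alone, with 22.5 normalised tags (17 tags). H3K27ac was found there in the astromal list alone, with 6.69 (9 tags), its centre 1 bp from that of the H3K9ac peak. The H3K27ac level stands at the 1.53 percentile of genes with the mark in that list, and the H3K9ac level at the 17.6 percentile in its own. At its stromal level, lowered by the shift of overlapping peaks, the H3K9ac site would have held 5.68 tags in the astromal library. The H3K27ac site would have held 11.5 tags in the stromal library at an equal level and 10.1 with that shift. The weakest listed peaks held 5 tags in the astromal H3K9ac list and 9 in the stromal H3K27ac list. Only 4.72% of astromal H3K9ac peaks had 6 tags or fewer, and the stromal H3K27ac header gives a tag threshold of 11. Both expected counts are thus near the limit of detection, and neither missing peak is a measured absence. Among all genes with stromal-only H3K9ac, 9.25% had H3K27ac in the astromal list only, as CREBBP did.

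KAT2A had H3K9ac in both conditions at 1 place, in the first exon 181 bp past the start. The level was 22.9 normalised tags (9 tags) astromal and 39.6 (30 tags) stromal, on chromosome 17 from 40273096 to 40273306 in the stromal list. The centred ratio was −0.21 (−1.32 to 1.05), and 0.11 by the highest peak, whose centre differs. H3K27ac was in the astromal list only, with 8.18 (11 tags) at 226 bp past and 7.43 (10 tags) at 214 bp before the start. The latter lies within reach of the KAT2A window printed above and the former past it, if the starts of both builds match. With the shift of overlapping peaks they would have held 12.4 and 11.3 tags in the stromal library, just over its threshold of 11, and the nearest stromal H3K27ac peak was 7834 bp away. Their folds over the surrounding region were 5.42 and 4.88.

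KAT2B, its paralogue, had its marks at different places. Its promoter carried H3K9ac 51 bp past the start in the stromal list, with 27.7 normalised tags (21 tags), on chromosome 3 from 20081470 to 20081680. No H3K27ac peak of either condition lay within 2 kb of that site. Instead H3K27ac marked a place about 9 kb into the first intron in both lists, with 8.92 astromal and 6.98 stromal (12 tags each), a centred ratio of −0.19 (−1.47 to 1.10). The stromal H3K27ac peak there spans chromosome 3 from 20090642 to 20090816. A weak stromal H3K9ac peak of 14.5 (11 tags) lay on the same intronic place. KAT2A and KAT2B thus differ in where H3K27ac was found: beside the start in the first, inside the gene in the second.

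KAT6B had the most peaks of the acetyltransferase genes, and its strongest H3K9ac lay upstream of the start used by the H3K9ac annotation. RefSeq holds 3 KAT6B starts in GRCh38, and distances to the others were not taken. The upstream peak, on chromosome 10 from 76584777 to 76584987 in the stromal list and 1289 bp before the start, had 38.2 normalised tags (15 tags) astromal and 42.3 (32 tags) stromal. The levels at this site were nearly equal on the normalised scale, a log2 ratio of 0.15 where overlapping peaks had a median of 0.64. The stromal list added 3 weaker peaks of 21.1, 21.1 and 18.5 from 655 bp before to 925 bp past the start. Summed, H3K9ac was 38.2 against 103 (78 tags), a centred ratio of 0.43 (−0.38 to 1.34) that was not called. By the highest peak the sign turned, to −0.53 (−1.46 to 0.46).

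KAT6B had a smaller H3K27ac sum and fewer peaks in the stromal list. It was 23.82 normalised tags (32 tags) in 2 astromal peaks and 9.89 (17 tags) in 1 stromal peak, a centred ratio of −1.10 (−2.04 to −0.21), called lower. The peaks covered 394 bp and 175 bp, with means of 11.9 and 9.89 per peak. The upstream peak coincided with the H3K9ac one and had 14.9 astromal and 9.89 stromal normalised tags. The other astromal peak, 187 bp past the start with 8.92 (12 tags) and 4.85-fold over its surroundings, had no stromal counterpart, which is not a measured absence. By the highest peak the value was −0.39 (−1.42 to 0.61) and was not called.

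KAT8 had peaks in the stromal list only, in both marks. H3K9ac peaks of 22.5 (17 tags) and 26.4 normalised tags (20 tags) lay 374 bp before and 562 bp past the start, the latter on chromosome 16 from 31129442 to 31129652 in the first intron. The H3K27ac peak of 6.4 (11 tags) was centred 3 bp from the intronic one. At its level the astromal library would have held 8.61 tags, where the weakest peak of that list held 8. The header of that list gives a tag threshold of 10, so the missing astromal peak is not a measured absence. KAT8 was the weakest member with H3K27ac in the stromal list, at the 3.96 percentile.

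**Figure D3:**
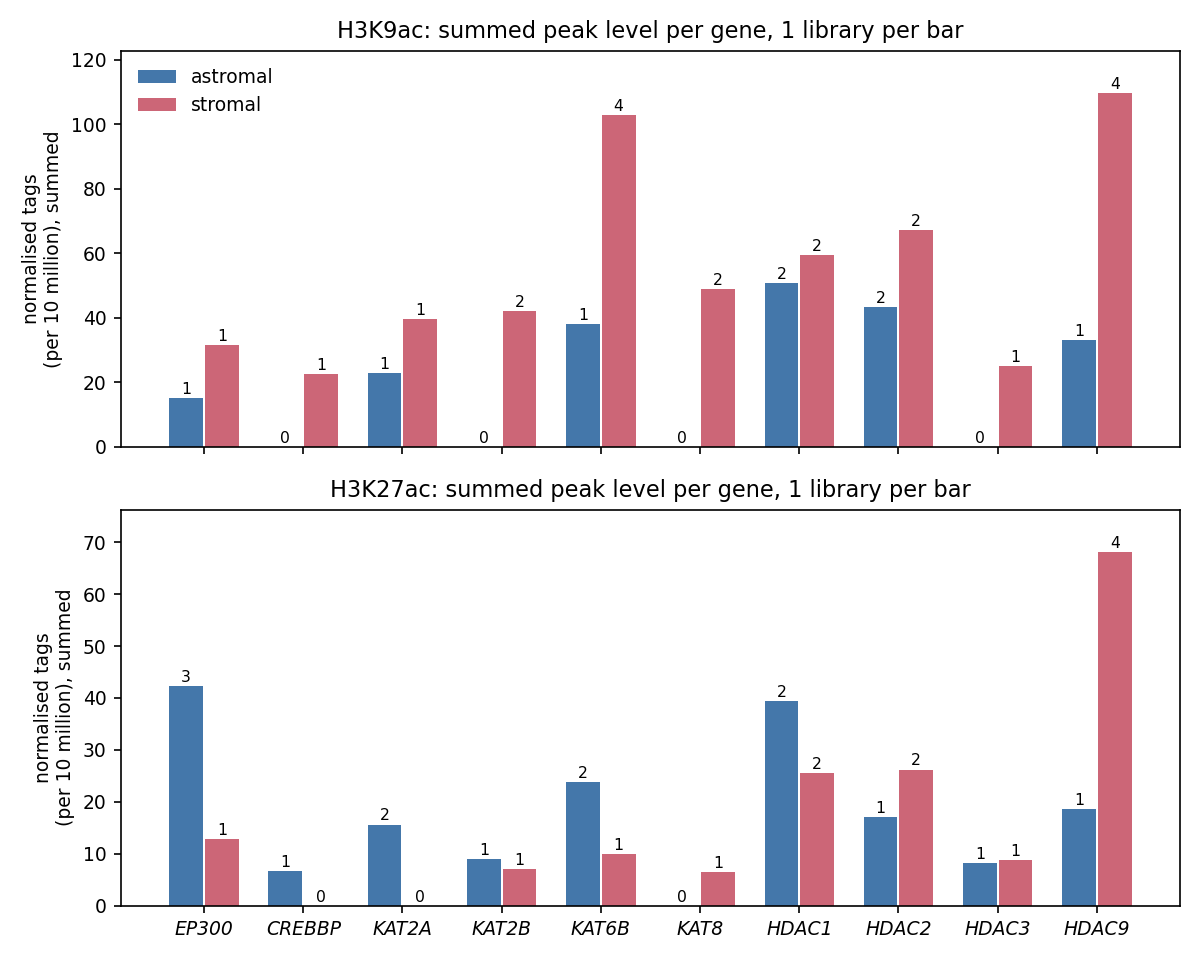
Summed normalised tags per gene (vertical axes) in H3K9ac (top) and H3K27ac (bottom). Each bar is 1 library, blue astromal and red stromal, with the number of peaks on top. A 0 marks a gene with no peak in that list. HDAC9 is the highest stromal member in both marks, at 109.7 and 68.1.

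HDAC1 was the most evenly marked of the deacetylase genes. Peaks of both marks flanked its start in both conditions. H3K9ac upstream was 22.9 normalised tags (9 tags) astromal and 25.1 (19 tags) stromal, and in the first intron 28.0 (11 tags) and 34.3 (26 tags). The upstream pair lay 422 and 431 bp before the start and the intronic pair 228 and 251 bp past it. The HDAC1 window printed above therefore falls between the flanking peaks, if the starts of both builds match. The stromal intronic peak spans chromosome 1 from 32757854 to 32758064. Summed, 50.9 against 59.4 gave a centred H3K9ac ratio of −0.78 (−1.57 to 0.06).

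HDAC1 H3K27ac was 26.0 (35 tags) and 13.4 (18 tags) at the astromal peaks and 18 (31 tags) and 7.56 (13 tags) at the stromal ones. All 4 overlapped their counterpart, and the stromal peak was lower at each site, with uncentred log2 ratios of −0.53 and −0.83. The centred sum was −0.45 (−1.07 to 0.15). Neither mark was called. Without centring the H3K9ac ratio was 0.22, so its sign depends on the general shift. Its astromal H3K9ac sum was the highest of the 10 genes, at the 89.6 percentile, and its stromal sum was at the 72 percentile.

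HDAC2, the paralogue of HDAC1, kept 1 H3K9ac site in both lists and had others in 1 list each. The shared site, in the stromal list on chromosome 6 from 114292089 to 114292299, had 22.9 normalised tags (9 tags) astromal and 44.9 (34 tags) stromal. That stromal peak was the highest single H3K9ac peak of any member, at the 89.9 percentile of its list. An astromal peak of 20.4 (8 tags) lay 519 bp before the start, the 1 astromal H3K9ac peak among the members with no stromal overlap. A stromal peak of 22.5 (17 tags) lay downstream in the first intron. The sums of 43.3 and 67.4 gave a centred ratio of −0.36 (−1.18 to 0.52), with 0.29 by the highest peak and 0.64 without centring.

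HDAC2 H3K27ac peaks of the 2 conditions did not overlap. The astromal peak of 17.1 (23 tags) lay 171 bp past the start. The stromal peaks of 15.1 (26 tags) and 11.1 (19 tags) lay 67 and 492 bp before it. The centred ratio of the sums was 0.78 (0.03 to 1.57), under the 2-fold that a call needed, and 0.02 (−0.85 to 0.89) by the highest peak. At 492 bp before the start stromal H3K27ac lay where astromal H3K9ac was found.

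HDAC3 had H3K9ac in the stromal list only, 25.1 normalised tags (19 tags) at 209 bp past the start, on chromosome 5 from 141016109 to 141016319. H3K27ac at the same place was in both lists and nearly equal, 8.18 (11 tags) astromal and 8.73 (15 tags) stromal, a centred ratio of 0.26 (−0.96 to 1.53). The site is also the promoter of RELL2 in the annotation. Stromal H3K9ac peaks of 26.4 and 22.5 named for RELL2 lay 565 and 978 bp away, again with no astromal peak. With the shift of overlapping peaks the HDAC3 site would have held 6.34 tags in the astromal H3K9ac library. There 4.72% of listed peaks had 6 tags or fewer and 23.2% had 7 or fewer.

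HDAC9 had the highest stromal levels of both marks among the 10 genes. Of its 10 peaks, 6 lay within 1 kb past internal starts and 4 about 142 kb upstream of the nearest one. Its stromal H3K27ac was 68.1 normalised tags (117 tags) in 4 peaks, against 18.6 (25 tags) in 1 astromal peak. The centred ratio was 2.04 (1.41 to 2.73), called higher, and the stromal sum stood at the 97.5 percentile of genes with the mark. The peaks covered 197 bp and 700 bp, with means of 18.6 and 17.0 per peak. The shared peak was the far upstream one, with 18.6 astromal and 19.8 stromal. That site was thus nearly equal. The other stromal peaks were 1 of 19.8 (34 tags) beside it and a pair of 15.1 and 13.4 within 161 bp past 2 internal starts. The peak of 15.1 spans chromosome 7 from 18535443 to 18535617. The nearest astromal H3K27ac peak to that pair was over 36 kb away. Equal levels would have given 20.3 and 18 tags in the astromal library, over its tag threshold of 10. The caller also required 4-fold over the surrounding 10 kb, and the pair had 5.37 and 4.58 in the stromal list. The missing astromal peaks are therefore not a measured absence. Local folds at the HDAC9 peaks were low, from 4.07 to 5.37. By the highest peak the ratio was 0.28 (−0.50 to 1.09) and was not called.

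HDAC9 H3K9ac was 33.1 normalised tags (13 tags) in 1 astromal peak and 109.7 (83 tags) in 4 stromal peaks, a centred ratio of 0.73 (−0.13 to 1.70) that was not called. By the highest peak it was −0.57 (−1.57 to 0.51), the opposite sign. The shared peak lay 155 bp past another internal start in the stromal list, on chromosome 7 from 18548950 to 18549160, with 33.1 astromal and 35.7 stromal. A second stromal peak of 29.1 followed it. H3K27ac was absent from both lists around this place: the nearest peak was 50207 bp away in the astromal and 13057 bp in the stromal list. The remaining stromal peaks, of 27.7 at an internal start and 17.2 at the far intronic site, coincided with stromal H3K27ac. In GRCh38 the first of the 5 HDAC9 starts lies 409 kb before the next, whereas all HDAC9 peaks span 157 kb and end at the internal starts, so no peak named HDAC9 lay at that first start. The HDAC9 window printed above, with 0 CpG, is the poorest in CpG of the HDAC9 windows. Those of the other internal starts had 4 CpG each, at the 34.3 percentile of all windows.

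**Figure D4:**
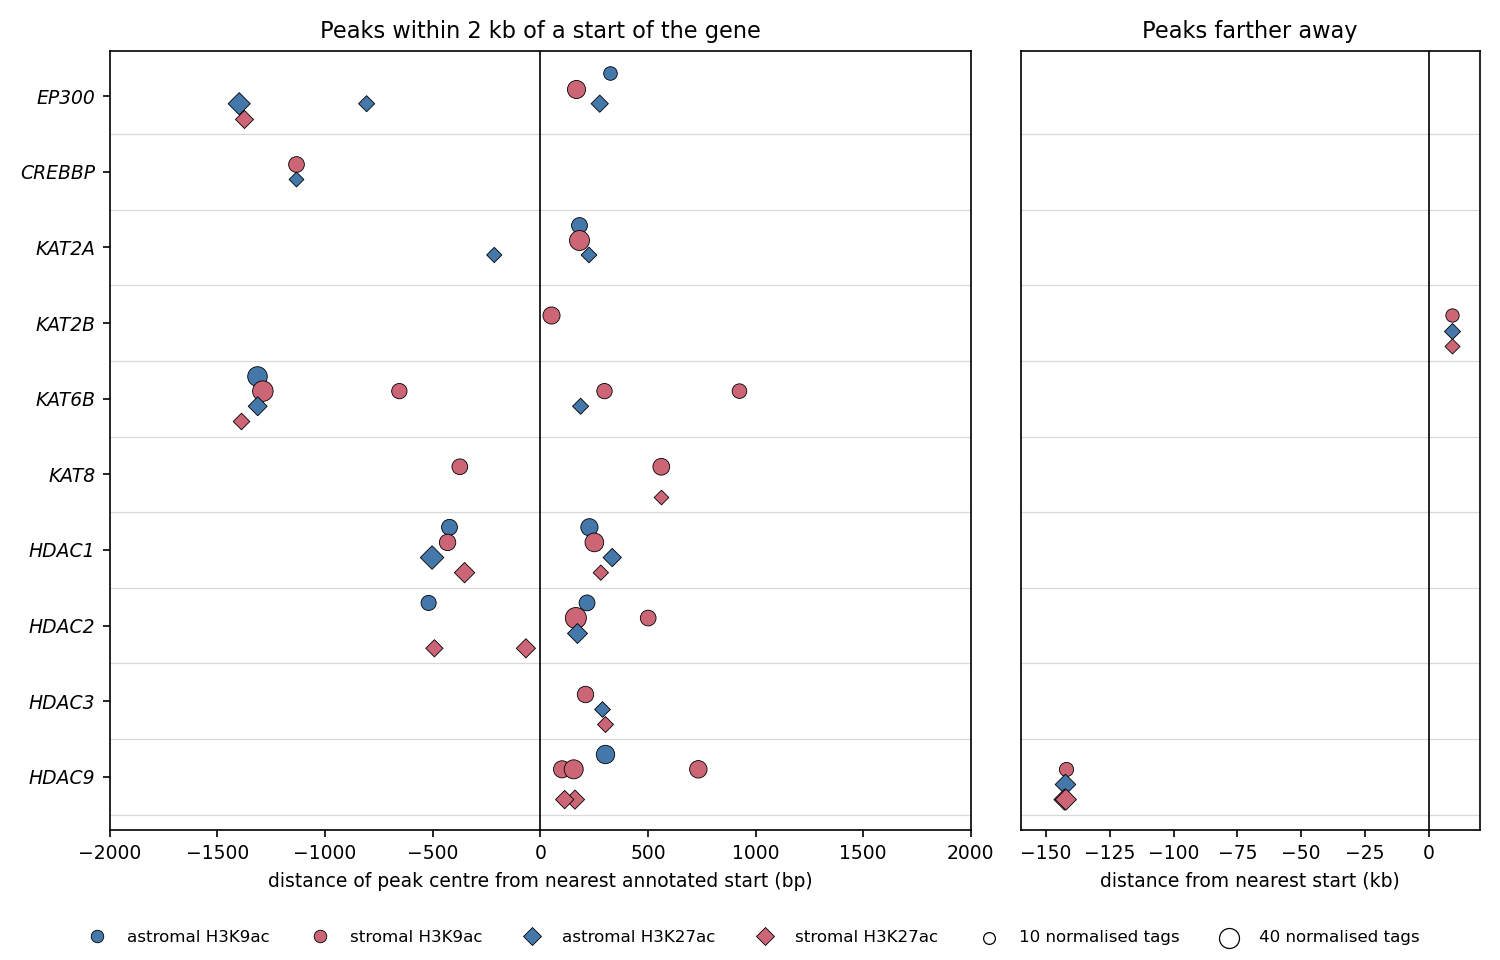
Position of every member peak relative to the nearest annotated start of its gene, in bp (left, within 2 kb) and kb (right, farther). Circles are H3K9ac and diamonds H3K27ac, blue astromal and red stromal, and the area grows with normalised tags. For KAT6B, HDAC2 and HDAC9 the zero stands for more than 1 transcript. HDAC1 shows peaks of all 4 libraries on both sides of the start, KAT2B and HDAC9 peaks far from it.

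At the sites shared by both conditions, H3K9ac was higher and H3K27ac mostly lower in the stromal list, in the direction of all overlapping peaks. Of the astromal H3K9ac peaks 7 of 8 overlapped a stromal one (87.5%, and 75.8% of all astromal peaks), which made up 35% of the 20 stromal peaks (26.6% of all). The stromal level was higher at all 7 sites, by 0.11 to 1.05 on the log2 scale with a median of 0.29, where all overlapping peaks had 0.64. Of the 7 sites 4 lay below that value, and a difference in size from all peaks was not tested in either mark. Of the H3K27ac peaks 7 overlapped, 50% of the astromal and 53.8% of the stromal ones, against 60.8% and 58.4% in the whole lists. The stromal level was lower at 5 of these 7 sites, with a median of −0.53 and a range of −0.83 to 0.09, where all overlapping peaks had −0.18. The same number, 5 of 7, lay below −0.18. These H3K27ac ratios are uncentred and compare peaks of 197 bp (astromal) with peaks of 175 bp (stromal). The part of the unequal widths in them was not tested. The 13 stromal H3K9ac peaks without astromal overlap had 14.5 to 29.1 normalised tags. With the shift of overlapping peaks they would have held 3.66 to 7.35 tags in the astromal library, all under its median peak of 9.

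H3K9ac and H3K27ac stood together at most but not all member sites. Of the 8 astromal H3K9ac peaks 7 had astromal H3K27ac within 2 kb (87.5%, and 89.1% of the whole list), the exception being HDAC9. Of the 20 stromal H3K9ac peaks 14 had stromal H3K27ac within 2 kb (70%, and 69.5% of the whole list). The exceptions were CREBBP, KAT2A, the promoter of KAT2B, 1 peak of KAT6B and a pair at HDAC9. Within 150 bp the numbers were 6 of 8 and 8 of 20, 75% and 40%, against 53.9% and 36.4%. Within 1 kb of a start lay 7 of 8 astromal and 16 of 20 stromal H3K9ac peaks, against 86.1% and 76.5% of the whole lists. Of the member peaks, 5 astromal and 13 stromal ones were within 1 kb downstream of a start of their gene. The downstream share was not counted over the whole lists.

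The wider set of acetylation genes was read from 4 lists of 90 other gene symbols: acetyltransferases, deacetylases, and subunits of the complexes of each. The symbols include older names of some genes that are also listed under a newer one. Of these, 82 had an H3K9ac row, with 51 present in both conditions (62.2%, and 48.1% of all genes) and 31 in the stromal one alone (37.8%, and 51.2%). H3K27ac was in both lists at 67 (81.7%, and 65.8% of all genes), at 7 among astromal peaks alone (8.54%, and 7.43%), at 1 among stromal peaks alone (1.22%, and 5.20%) and at 7 in neither (8.54%, and 21.5%). The median centred ratio was 0.13 for H3K9ac and 0.02 for H3K27ac. In H3K9ac 2 of 51 were called higher and 0 lower, where 5.85% and 3.61% of all genes were. In H3K27ac 0 of 67 were called higher and 2 lower, where 5.47% and 6.22% of all genes were. These shares rest on few genes, and their distance from those of all genes was not tested.

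Among 13 other acetyltransferase genes, all with H3K27ac in both lists, NCOA1, ATF2 and NAA60 had stromal-only H3K9ac (43.6, 34.3 and 52.9 normalised tags). NCOA3, a nuclear receptor coactivator, had an H3K27ac sum called lower, at −1.03 (−1.81 to −0.27), with 31.93 normalised tags (43 tags) in 2 astromal peaks and 14 (24 tags) in 1 stromal peak. It was at −0.62 (−1.44 to 0.18) by the highest peak and was not called. Its H3K9ac was 20.4 and 72.7 and was not called. Of 12 other deacetylase genes with a row, HDAC10 (44.9), SIRT3 (58.1), SIRT6 (30.4) and SIRT7 (22.5) had stromal-only H3K9ac. HDAC10 and SIRT7 had no H3K27ac in either list, and the other 10 had it in both. SIRT4, a mitochondrial sirtuin gene, had the highest H3K27ac of the set, 111.5 astromal and 124.5 stromal.

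Subunit genes gave the remaining calls of sums, none of which held by the highest peak. MTA3, of the NuRD deacetylase complex, was called higher in H3K9ac at 1.19 (0.19 to 2.37), with 22.9 astromal (9 tags) and 104.4 stromal normalised tags (79 tags), and MSL3, of the KAT8-containing MSL complex, at 1.18 (0.05 to 2.55), with 17.8 (7 tags) and 80.6 (61 tags). Each had 1 astromal and 3 stromal peaks, and by the highest peak MTA3 was at 0.06 and MSL3 at 0.57. YEATS4, of the TIP60 complex, was called lower in H3K27ac at −1.13 (−2.18 to −0.15), with 20.06 in 2 astromal peaks and 8.14 in 1 stromal peak, and was at −0.16 by the highest peak. The highest stromal H3K9ac sums were those of the corepressor gene RCOR3 (208.7), EPC1 (187.6), SIRT4 (165), GATAD2A (159.8) and MSL1 (136.1, with no astromal peak). After SIRT4 the highest stromal H3K27ac sums were those of JADE1 (76.2), ATF2 (61.1) and RBBP4 (57.6), followed by SUPT3H and EPC1 (56.4 each).

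Patterns most like those of single members were sought over the 4 libraries, as the Euclidean distance between log2 levels with 1 added. Nearest to EP300 were HDAC8 (distance 1.07), KAT6A (1.24) and NCOA3 (1.30). HDAC8 had 20.4 and 22.5 normalised tags of H3K9ac and 24.5 and 17.5 of H3K27ac, astromal first. Nearest to HDAC9 were SIN3A (1.21), MBD3 (1.37) and GTF3C4 (1.42). SIN3A had 40.8 and 64.7 of H3K9ac and 26.7 and 40.1 of H3K27ac, so even the nearest gene had a smaller H3K27ac difference than the 18.6 and 68.1 of HDAC9.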

How the data were processed

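H3K9ac and H3K27ac ChIP libraries of astromal and stromal spheroids, 1 each, were used through their 4 peak lists. The submitters' processing notes name CASAVA 1.8.2, Bowtie, HOMER and the build hg19. Input libraries (4) enter only through the authors' calls. H3K27ac peaks of 197 bp (astromal) and 175 bp (stromal) were called against input at an FDR of 0.001, at least 4-fold over input and over the surrounding 10 kb, per the file headers. H3K9ac lists carry HOMER annotation, per the file headers, and no source used here gives their thresholds. The deposited signal is the authors' tag count per peak, normalised to 10000000 tags per the file headers of H3K27ac, a scale assumed for H3K9ac. The deposited raw count of the astromal H3K27ac list equals the tags behind the signal at all member peaks. The deposited fraction of tags in focus, the findPeaks score and the p-value columns were not used for results. The fold over input and fold over the local region, ratios deposited by the authors, describe H3K27ac peaks within a list.

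H3K9ac tags and depth were recovered from the even steps of the signal, all values lying within 0.1 tag of a whole number. Log2 ratios of tags were computed here, with exact Clopper-Pearson 95% intervals for counting error only, and checked on simulated data. Overlap meant at least 1 bp. Start positions came from the H3K9ac annotation. Members, gene lists and rules were chosen with earlier results of these data known. Named beside all members were condition-only enzyme genes, called genes, the 5 highest stromal sums per mark and the 3 genes nearest to EP300 and HDAC9. Python 3.11.15, numpy 2.4.6, pandas 2.3.3 and scipy 1.17.1 were used. With 1 library per group no test between conditions was possible. Alternatives are in the closing section.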

Additional observations from a re-analysis of the deposited data

Results flagged for a closer look

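At EP300 and KAT6B, where the H3K27ac sum was called, the centred values of the 2 marks fell on opposite sides of 0. CREBBP had the 2 marks in opposite lists. Each value rests on 1 library per mark and condition, and the difference between the marks was not tested. EP300 had a centred log2 ratio of −1.56 in H3K27ac and 0.05 (−1.28 to 1.63) in H3K9ac. KAT6B had −1.10 in H3K27ac and 0.43 in H3K9ac, but by the highest peak both were below 0 (−0.39 and −0.53). Neither H3K9ac ratio was called and both intervals included 0. No H3K9ac difference was therefore found at these genes, and neither H3K9ac sign is settled. HDAC2 also had opposite signs, −0.36 in H3K9ac and 0.78 in H3K27ac, with neither called. CREBBP had its H3K27ac peak (6.69 normalised tags) in the astromal list only and its H3K9ac peak (22.5 normalised tags) in the stromal list only, at the same site. Neither missing peak is a measured absence, because the expected counts were near the limit of detection. Among all genes with stromal-only H3K9ac, 9.25% had H3K27ac in the astromal list only.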

How the results depend on the processing

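No paired analysis was possible because each group has 1 library. Counts of calls were the results that depended most on the processing. With the highest peak in place of the sum, 0 members were called higher and 0 lower in H3K27ac, against 1 and 2. In an alternative chosen after seeing the data, MTA3, MSL3, NCOA3 and YEATS4 were not called by the highest peak either, and all 4 stayed called without centring. With H3K27ac taken within 1 kb, 1 of 6 was called lower, because the EP300 peak shared by both lists lies farther away. A window of 5 kb changed no member value. Without centring, 2 members, KAT6B (1.43) and HDAC9 (1.73), were called higher in H3K9ac. With H3K9ac peaks of at least 25 normalised tags, 3 members had the mark in both lists, against 6, and 6 in the stromal list only, against 4, and under that threshold and 8-fold over input 24 of the other acetylation genes did, against 51. The other 33 of 39 alternative values for counts and medians stayed within 1.5 times the main count or within the median counting interval of the members, and neither the 3 called members nor those 4 genes changed sign where re-run. Signs that were not called did change: the member median went from −0.19 to 0.04 in H3K27ac within 1 kb and from −0.08 to 0.92 in H3K9ac without centring, and H3K9ac ratios of HDAC1, HDAC2, KAT2A, KAT6B and HDAC9 changed sign without centring or by the highest peak. No interval covers variation between cultures, and no library could be left out.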
